A study of Mus musculus with 12 samples.

Results

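Newly made RNA was compared with total RNA, gene by gene, in the control samples of a SLAM-seq study of microglia: 3 of the 12 samples. A gene was taken when its total count averaged 100 or more over these 3 libraries, which held for 9339 of the 30994 genes in the tables. For each gene the nascent count was divided by the total count of the same library. This quotient, the nascent share, was ranked within each library and expressed as a percentile, where 100 marks the gene with the highest share, and the percentiles were averaged over the 3 libraries. Ranks were given to the 9318 genes with a total count above 0 in every library. In SLAM-seq, cells take up 4-thiouridine, a uridine analogue, for a short time, and iodoacetamide later alkylates it so that labelled positions in new RNA are read as changed bases.

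The cells were SIM-A9, a spontaneously immortalised microglial line from C57BL/6 mice. Every sample of the series, the controls included, first received 10 µM polymyxin B, an antibiotic that binds lipopolysaccharide, for 1 h. The control group then had DMSO for 1 h and sham aggregates for 2.5 h before 100 µM 4-thiouridine was added for 90 min, so that sham material was present for 4 h in all and reagents were added in serum-free medium. The remaining 9 samples had TDP-43 aggregates, the compound C13 or both, with 3 samples in each group. The controls were therefore handled cells and not resting ones. Each control is labelled a biological replicate, with no day, batch or separate culture given, so p-values measure only the spread between these samples, which may be technical.

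Every transcript is set by the balance of synthesis and decay. In a cell at steady state, a short-lived transcript is renewed quickly and most of its copies are new at the end of a pulse, whereas a long-lived one keeps mostly old copies; where transcription has just risen, the nascent share is high as well, and a single pulse does not separate these. Many transcripts of cytokines, transcription factors and feedback inhibitors carry AU-rich elements in the 3′ untranslated region (UTR), which are bound by decay factors such as tristetraprolin (Zfp36), while transcripts of ribosomal proteins and metabolic enzymes are known to be stable.

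Total counts summed to 32105684, 38318656 and 38290815 reads in replicates 1, 2 and 3, and nascent counts to 1092548, 2722812 and 1050971. Nascent reads were thus 3.40%, 7.11% and 2.74% of all reads, and the median gene had a nascent share of 2.78%, 6.33% and 1.64%. Replicate 2 stood apart from replicates 1 and 3, and also from the remaining 9 libraries, whose nascent reads were between 1.88% and 3.35% of the total. The excess was present from low to high genes. When genes were put in 10 equal parts by their rank in the other 9 libraries, replicate 2 exceeded the mean of replicates 1 and 3 by 2.38 percentage points in the lowest part and by 4.34 points in the highest, which is a ratio of 12.1 in the lowest part and of 1.66 in the highest. Its cause was not tested. For this reason gene values are given for each library, and the calls are also given without replicate 2.

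**Figure D1:**
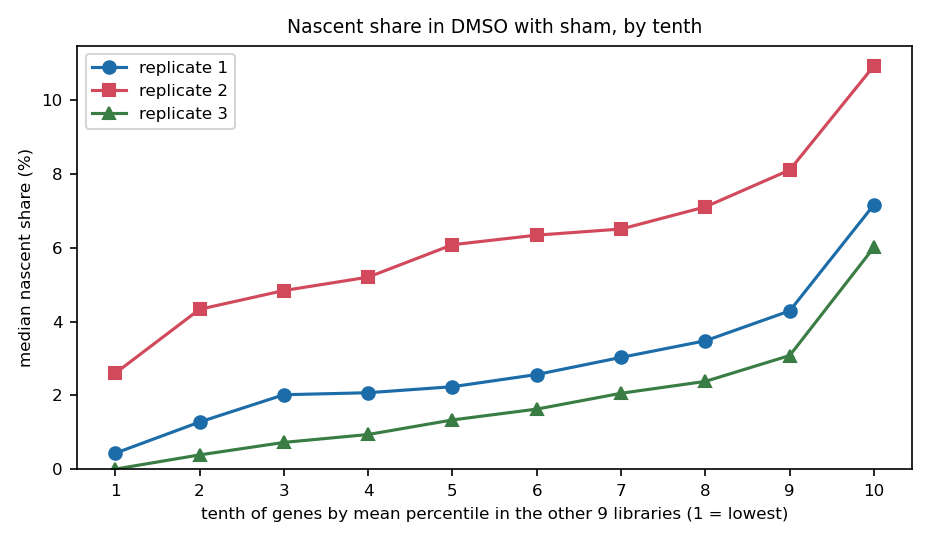
Median nascent share (percent, vertical axis) in each of the 3 control libraries for 10 equal parts of the genes, ordered by their mean percentile in the other 9 libraries (horizontal axis, 910 genes each). All 3 lines are higher in the last part than in the first, and replicate 2 lies above the others throughout, at 2.60% in the lowest part and 10.9% in the highest.

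Nascent counts were low for many genes, and ranks differed between the libraries. The median member had a mean of 45.3 nascent counts and 7013 members had a nascent read in all 3 libraries. Spearman's rho between the percentiles of any pair of control libraries was 0.284 to 0.331 over 9318 genes. With a mean of 1000 or more total counts it was 0.300 to 0.353 (4762 genes), and with 3000 or more 0.354 to 0.438 (2198 genes). Over the 672 genes with a mean of 10000 or more total counts it was 0.494 to 0.614. The part of depth in these values was not tested. Against the mean percentile of the other 9 libraries, which share the protocol but no sample, rho was 0.646 over 9100 genes and 0.799 over the 672 most deeply counted ones. Abundance and percentile were also related across genes (rho 0.276 over 9318 genes). Levels are given as CPM, a gene's total count scaled to a library of 1000000 counts. Reads come from transcript 3′ ends, so CPM was not divided by gene length.

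The cells carried the profile of a macrophage-like line. Of 20 markers of microglia and macrophages, 16 were members, and their summed level was 2912 to 3087 CPM in the 3 libraries, led by Ctss, a cathepsin, and Fcer1g, an Fc receptor chain. The homeostatic microglial markers were at or near 0: Sall1 had no read, and Tmem119 and C1qa averaged 0.650 and 0.245 CPM. Markers of astrocytes, neurons, lymphocytes and neutrophils summed to at most 4.20 CPM, and 6 of 6 fibroblast and pericyte markers were at 0. Exceptions were the endothelial receptor gene Kdr, at 129 CPM, and Mbp, which is known for myelin, at 20.3.

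Most of the abundant transcripts had nascent shares near that of the typical gene. The 20 genes with the highest mean CPM held 15.98%, 18.41% and 13.58% of the reads of replicates 1, 2 and 3, and the top 1000 genes held 67.0% ± 1.28 (SD, n = 3). First came CT010467.1, annotated as ribosomal RNA on chromosome 17, with 5.24%, 7.76% and 2.44% of all reads. Its nascent share was 2.27%, 6.59% and 2.53%, close to the median gene of each library. Behind it stood Serbp1, which binds mRNA and ribosomes, with 13174 CPM and a share of 2.49%, 6.44% and 1.81%, and Psap, the precursor of the lysosomal saposins, with a share of 1.37%, 4.84% and 1.71%. Others among the 20 were mt-Rnr2 and mt-Rnr1, the ribosomal RNAs of mitochondria; Eif5a, Tuba1b, Fth1, Gpnmb, Actb, Hnrnpk, H2afz, Bc1, Ran, Tmsb4x and Capzb; and the ribosomal protein genes Rps14, Rps9 and Rps27a. Of the abundant genes named here, Bc1 differed from the typical gene in the test described next, the others did not pass it, and the mean percentiles of those others ran from 35.3 for Gpnmb to 69.0 for Actb.

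Bc1, a short noncoding RNA made by RNA polymerase III and best known from neurons, had 83206, 164381 and 202060 reads with a share of 10.3%, 11.9% and 8.74%. Actb, which encodes cytoplasmic actin, had a share of 4.04%, 7.53% and 4.87%, and Gapdh, the glycolytic dehydrogenase often used as a stable reference, had 1.86%, 4.28% and 1.70%. Tardbp, which encodes TDP-43 itself, was well expressed at 898 ± 156 CPM (SD, n = 3), with shares of 5.78%, 8.86% and 2.57%.

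A share above or below that of the typical gene was tested with edgeR's quasi-likelihood test, nascent against remaining reads within each library, with Benjamini-Hochberg adjustment over the 9339 members and an adjusted p below 0.05 as the limit. It found 72 genes with a higher nascent share, 0.771% of those tested, and 10 with a lower one, 0.107%. An unadjusted p below 0.05 was reached by 1346 genes. The counts moved with the libraries used: without replicate 2 there were 87 higher and 24 lower genes, of which 65 and 8 were among the 72 and the 10. Leaving out replicate 1 left 28 and 5, and leaving out replicate 3 left 70 and 23. DESeq2 called 258 higher and 288 lower, among them 71 of the 72 and 10 of the 10. In the fold changes below, given as log2 with its standard error, 0 stands for the typical gene.

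**Figure D2:**
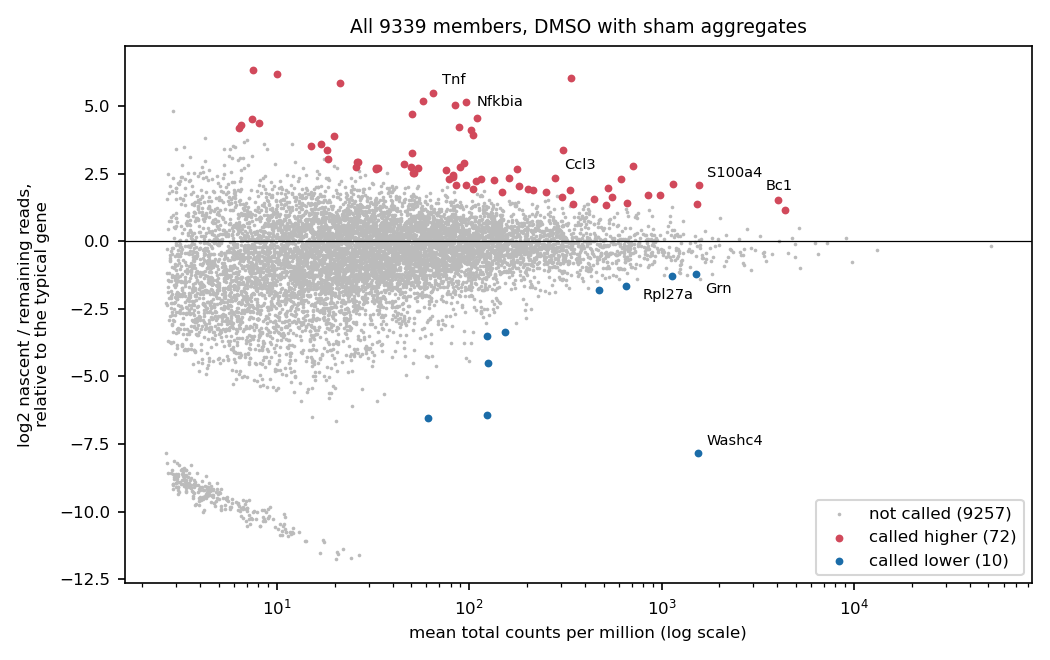
Mean total CPM (log scale) against the log2 ratio of nascent to remaining reads relative to the typical gene, for the 9339 members in the 3 control libraries. The 72 genes called higher and the 10 called lower are coloured, with Tnf at 5.50 and Washc4 at -7.83, and the separate grey cloud at the lower left is the 249 genes without a nascent read in any of the 3 libraries, none of which was called.

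Of the 72 genes with a higher share, 59 were protein-coding, 10 were transfer RNA genes of the mitochondrial genome, 2 were annotated as long intergenic noncoding RNAs (Snhg20 and Bc1) and 1 as a processed transcript. In 8 of the 72 more than 50% of the reads were nascent in all 3 libraries. How reads in overlapping genes were counted is not stated, and 21 of the 72 overlapped another gene on the same strand. For 16 of the 72, all 24 counts of the series shared a common factor of 2 or more, as they did for 1822 members in all, so that these counts were not single reads. Dividing counts by that factor gave 91 higher and 19 lower calls, with 66 of the 72 and 8 of the 10 among them.

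The protein-coding genes with the highest shares were an inflammatory cytokine, a stress hormone and feedback inhibitors. Tnf encodes tumour necrosis factor and lies on chromosome 17, 35199381 to 35202007, on the minus strand. Of its 2162, 2062 and 2837 reads, 1489, 1123 and 1913 were nascent, a share of 68.9%, 54.5% and 67.4%. Most Tnf reads in the control cells were thus marked as made within the 90 min pulse, in each library. Relative to the typical gene its log2 ratio was 5.50 ± 0.49 (SE; edgeR's quasi-likelihood test, adjusted p = 0.000167). Gdf15, which encodes a stress-induced hormone of the TGF-beta family (chromosome 8, 70629393 to 70632456, minus strand), had 1378, 2552 and 2388 reads and a share of 52.98%, 57.9% and 65.9%, with a common factor of 2 in its counts. Nfkbia encodes IκBα, the inhibitor that holds NF-κB in the cytoplasm and is itself an NF-κB target (chromosome 12, 55489410 to 55492647, minus strand). Of its 2928, 3894 and 3710 reads, 1855, 2235 and 2017 were nascent, a share of 63.4%, 57.4% and 54.4%. Ier3, an early response gene (chromosome 17), followed with 43.4%, 52.1% and 57.6%. Replicate 2 was not the highest library for Tnf, Gdf15, Nfkbia or Ier3, unlike for the median gene.

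The 3′ UTRs of Tnf, Gdf15, Nfkbia and Ier3 are AU-rich. The core motif TATTTAT was searched on the transcript strand of the 3′ UTR, with overlapping matches counted. A single transcript was used per gene: the one with the best principal-isoform (APPRIS) tag in GENCODE, and among equals the longest. Tnf had 8 copies in 764 bases, Cxcl2 had 7 in 734, Ier3 and Pim1 had 4 each, Gdf15 had 3 in only 150 bases and Nfkbia had 2 in 512. Pim1 and Cxcl2 were called higher but are not among the 15 called genes of highest mean percentile. Ccdc36, Kif3a and Trex1 are among these 15, and each had 0 copies. The stretches of 30 bases with the most copies are shown because they let the density be compared, with the motif in capitals, 5′ to 3′, in GRCm38. They lie in the 3′ UTR exon at chr17:35199677-35199706 (minus strand) for Tnf, chr8:70629476-70629505 (minus) for Gdf15, chr12:55489608-55489637 (minus) for Nfkbia, chr17:35822484-35822513 (plus) for Ier3, chr17:29495690-29495719 (plus) for Pim1 and chr5:90905325-90905354 (plus) for Cxcl2.
Tnf: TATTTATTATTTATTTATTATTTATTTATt
Gdf15: ggatgcTATTTATatttgTATTTATtaata
Nfkbia: aggaccacgtttTATTTATtgtgcttttga
Ier3: ctaattaaTATTTATgTATTTATgtatatc
Pim1: ttaatgTATTTATTTATTTATTTATttggt
Cxcl2: ctTATTTATTTATctatgTATTTATTTATt
A match describes the letters only and is not evidence of binding or decay.

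**Figure D3:**
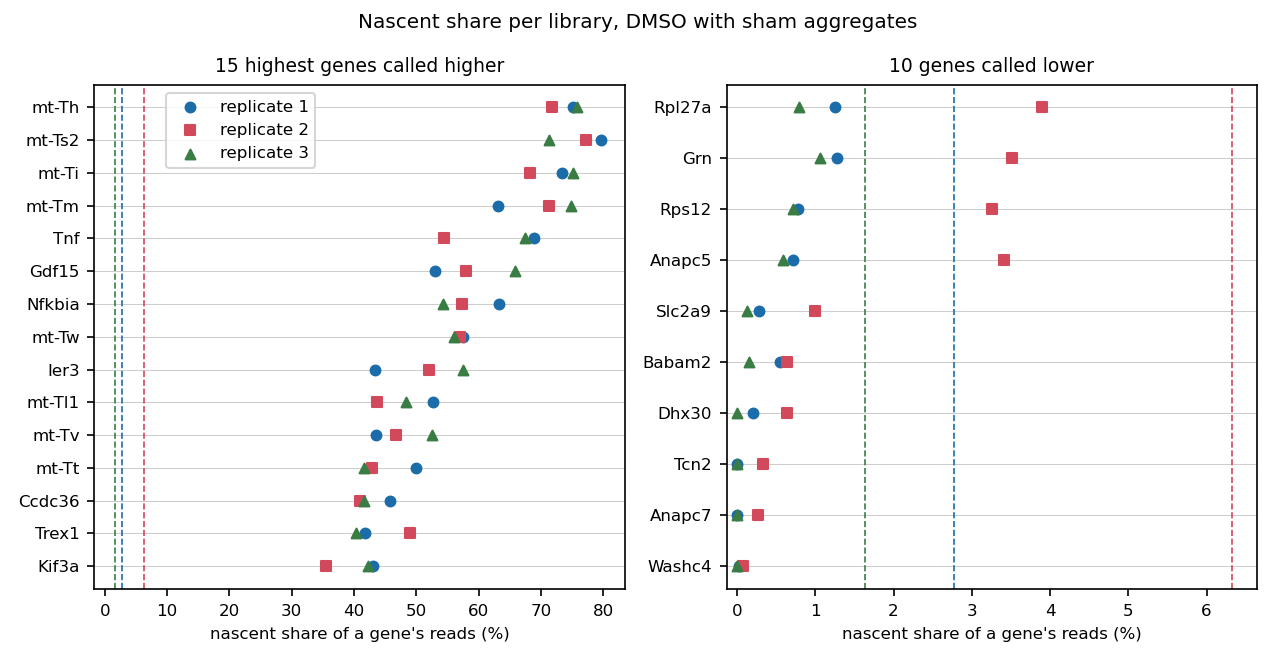
Nascent share (percent of a gene's reads) in each control library for the 15 genes of highest mean percentile among those called higher with a mean of 20 or more nascent counts (left) and the 10 genes called lower (right). Dashed lines mark the median gene of each library, at 2.78%, 6.33% and 1.64%; on the left every point lies at 35.4% or above, and on the right every gene lies below the median of its own library.

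Transfer RNA genes of the mitochondrial genome formed the other group at the top. Of the 14 such genes found, 11 were members, all 11 were in the top 10% of percentiles, and 10 were called higher. Their median share was 52.7%, 46.8% and 52.5% in the 3 libraries, which is 16.5 times the all-gene median as a geometric mean. For mt-Ti, the isoleucine tRNA (mitochondrial genome, 3706 to 3774), the libraries held 8235, 14216 and 14768 reads with a share of 73.3%, 68.3% and 75.2%. mt-Th reached 75.2%, 71.8% and 75.8%. These genes are short and lie between longer genes of the same transcript, which is cut apart after transcription, and mt-Ti overlapped annotated genes on both strands. The counts do not separate a free tRNA from a longer transcript that runs across it. The mitochondrial ribosomal RNA mt-Rnr2 had a share of 3.797%, 4.65% and 4.02%, and was called neither higher nor lower (adjusted p = 0.838).

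The other genes among the 15 highest were Ccdc36, with 45.7%, 41.0% and 41.6%, Kif3a, a kinesin motor subunit, with 43.0%, 35.4% and 42.3%, and Trex1, a cytosolic DNA exonuclease, with 41.8%, 49.0% and 40.3%. Ccdc36 and Kif3a were also high in each of the other 9 libraries, with lowest percentiles of 99.7 in both. Trex1 rested on only 196, 384 and 134 reads with a common factor of 2, overlapped a gene on the same strand, and ranged from a percentile of 15.1 to 100 in the other libraries.

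Among inflammatory cytokines and chemokines, 15 of 30 listed genes were members and 5 of these 15 had a higher share, beside 0.771% of all members. Ccl3 and Ccl4, which attract monocytes and T cells, lie side by side on chromosome 11. Ccl3 was the more abundant, at 281 ± 57.4 CPM (SD, n = 3), with a share of 16.3%, 17.7% and 16.5%, and its log2 ratio was 2.35 ± 0.32 (SE, adjusted p = 0.00465). Ccl4 had 50.4%, 30.6% and 31.1%. Cxcl2, a neutrophil chemokine, had 23.8%, 29.2% and 10.2%, and Csf1, the growth factor of macrophages, had 15.7%, 15.9% and 11.3%. Each of these lay above the median gene in every library. The other members spread widely: Ccl2 had 12.2%, 14.7% and 8.06% and missed the limit (adjusted p = 0.276), and Il1b, an inflammasome cytokine, had 5.79%, 6.88% and only 0.197%, so that replicate 3 lay far below the others. Il1rn, the secreted antagonist of the interleukin-1 receptor, was the most abundant, with 2692 CPM, and its share of 2.39%, 5.73% and 2.23% was near the median.

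Among NF-κB subunits and feedback regulators, the inhibitors had the highest shares. Of 24 members among 25 listed, 3 had a higher share (Nfkbia, Ier3 and Nfkbiz), and 10 of 24 were in the top 10%. Nfkbiz, a nuclear IκB that directs secondary response genes, had 19.7%, 25.6% and 16.2%, with a common factor of 4. Nfkbid, its relative, had 28.6%, 19.7% and 14.8% but missed the limit (adjusted p = 0.0822). Of the DNA-binding subunits, none of which was called, Rela had 2.99%, 9.50% and 2.18%, Nfkb1 had 3.72%, 7.33% and 3.23%, and Nfkb2 had 7.98%, 8.71% and 7.07%. Rel had 15.3%, 18.4% and 2.16%, and Relb had 0.191%, 11.1% and 7.05%, so that Relb in replicate 1 was the 1 value of these 5 genes below the median of its library. For the class as a whole, the median share was 4.73%, 9.32% and 3.39%, above the all-gene median by 0.79 ± 0.24 on the log2 scale (SD, n = 3). The lowest member was Bcl2a1b, an antiapoptotic gene of a family of near-identical copies whose reads may be shared, at 2.60%, 3.79% and 0.469%.

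Of the genes called higher, 44 had a promoter window in the RefSeq table (GRCm38.p6, 250 bases before and 50 after the start). The NF-κB motif, GGGA and TTTCC with any 1 base between them, was searched on both strands and was present in 3 of these 44 (6.82%), beside 36 of 7299 protein-coding members (0.493%) and 135 of all 32851 windows (0.411%). The 3 genes were Nfkbia, Cxcl2 and Csf1, and the stretch from 15 bases before the motif to the last base before the start is shown because it places the motif relative to transcription. The motif begins 29, 97 and 154 bases before the start. The motif is in capitals, reads 5′ to 3′ on the gene's strand, and is on the opposite strand in Nfkbia and Csf1. The windows are chr12:55492648-55492691 (minus) for Nfkbia, chr5:90903787-90903898 (plus) for Cxcl2 and chr3:107760470-107760638 (minus) for Csf1.
Nfkbia: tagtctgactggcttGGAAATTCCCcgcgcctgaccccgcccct
Cxcl2: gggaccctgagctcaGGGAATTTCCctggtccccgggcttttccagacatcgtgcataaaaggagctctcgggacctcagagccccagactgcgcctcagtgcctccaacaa
Csf1: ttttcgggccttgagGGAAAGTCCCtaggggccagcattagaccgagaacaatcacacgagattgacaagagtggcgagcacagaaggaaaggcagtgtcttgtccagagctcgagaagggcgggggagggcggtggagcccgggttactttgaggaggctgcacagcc
No match was found in the windows of the other 41 genes, which says only that these letters are not in these windows.

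Immediate-early transcription factors had the highest median of the 38 classes at the minimum of 100 counts, a set that does not hold the mitochondrial tRNA genes. At a minimum of 500 counts, where 5 of them were left, their log2 value was 1.36, beside 1.49 for cytokines, and in the other 9 libraries they were above the all-gene median in 8, with a lowest value of -0.51. Immediate-early genes are switched on within minutes of a stimulus without new protein. Of 24 listed, 13 were members, and 10 of the 13 were in the top 10%. The median share of the class was 14.9%, 11.4% and 12.5%, which is above the all-gene median by 2.07 ± 1.09 on the log2 scale (SD, n = 3), and by 0.84 in replicate 2, the smallest value. Klf6 (23.3%, 31.8% and 28.0%) and Atf3 (20.04%, 20.3% and 26.8%) were called higher. Junb had 14.4%, 20.2% and 15.9%, Jun had 16.7%, 13.7% and 9.31%, and Mafk had 15.8%, 18.4% and 15.2%, all above the median gene in each library yet short of the limit. Their levels were low, at 13.01, 6.27 and 3.33 CPM. The AP-1 partner Jund stood lower, at 4.74%, 7.33% and 3.58%. Fos, with 12, 9 and 17 total reads, and Myc, with 0, 20 and 0, were below the minimum.

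Signalling feedback regulators, which switch kinase and cytokine pathways off again, lay above the all-gene median by 1.12 ± 0.68 on the log2 scale (SD, n = 3) over 15 members of 27 listed. Dusp2, a nuclear phosphatase of MAP kinases, was the 1 member called higher, with 47.4%, 29.1% and 48.2% of 211, 179 and 299 reads (adjusted p = 0.0461). Its relative Dusp4 had 8.12%, 20.4% and 5.74%, and Spred1, a Ras inhibitor, had 7.38%, 6.19% and 1.95%. The MAP kinases themselves were not high: the median share of 18 members was 4.24%, 6.197% and 1.02%, on either side of the all-gene median. Mok, with 44, 6 and 132 total reads and no nascent read, was below the minimum.

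Genes of mRNA decay were mostly ordinary in their own nascent share. Of 27 members, none was called. The exception in level was Zfp36, which encodes tristetraprolin: of 96, 126 and 90 reads, 60, 64 and 40 were nascent, which is 62.5%, 50.8% and 44.4%. With so few reads its log2 ratio of 4.81 ± 1.05 (SE) missed the limit (adjusted p = 0.063), whereas it passed over the other 9 libraries. Its own 3′ UTR holds 3 copies of the motif. The relatives Zfp36l1 (10.0%, 12.9% and 2.94%) and Zfp36l2 (10.7%, 18.5% and 1.86%) were above the median gene in each library, and the deadenylase scaffold Cnot1 had 3.15%, 7.17% and 0.598%.

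Of the stress response lists, those of ATF4, NRF2 and p53 lay above the all-gene median in all 3 libraries, while heat shock proteins and the chaperonin lay at -0.14, 0.15 and 0.72 on the log2 scale (19 members, 0 called). Members of the ATF4 and unfolded protein response lay 0.66 ± 0.24 above the all-gene median on the log2 scale (SD, n = 3; 28 members, 0 called). Atf4, the factor that gives the pathway its name, had 8.79%, 11.8% and 8.37%, and Hspa5, the chaperone of the endoplasmic reticulum, had 6.27%, 9.52% and 4.99% at 2009 CPM. NRF2 targets lay 0.55 ± 0.34 above (20 members, 0 called), but at 3000 or more counts their value was 0.08 and replicate 1 lay below, at -0.06. Their member Hmox1, a heme-degrading enzyme, had 6.76%, 10.6% and 10.2% (adjusted p = 0.109), whereas the iron-storage subunit Fth1 had 2.82%, 7.45% and 2.28%. Among 18 members of the p53 target list only Gdf15 was called, and Cdkn1a, which arrests the cell cycle, was near the typical gene with 3.33%, 4.42% and 1.99%. The type I interferon list had 1 call in 24 members. Rsad2, an antiviral enzyme, had 17.2%, 14.6% and 17.3% (adjusted p = 0.0341), and Isg15, an ubiquitin-like modifier, had 22.2%, 16.9% and 20.3% (adjusted p = 0.063). The spread among low members was wide: Oas1a had no nascent read.

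Nuclear long noncoding RNAs and noncoding hosts of small nucleolar RNAs, taken as 1 list, lay 1.13 ± 0.61 above the all-gene median (SD, n = 3, 6 members). Of the 27 genes listed only 8 were found among the counted genes. Malat1 and Neat1 were not found under these names. Snhg20 was called higher, with 13.1%, 26.0% and 12.2%, while Gas5 had 3.27%, 7.75% and 3.05%. Nop56, a core protein of these particles whose gene overlaps 5 genes on its own strand, had 29.5%, 17.9% and 16.3%. The 32 members for ribosome biogenesis lay 0.54 ± 0.38 above. Chromatin and transcription regulators lay 0.60 ± 0.38 above, with the cyclins of the transcription kinases at their head: Ccnl1 had 41.2%, 44.3% and 21.9% (adjusted p = 0.0552), and Ccnt1 had 7.24%, 18.5% and 12.6%. Splicing factors lay 0.44 ± 0.12 above, with 24 of 28 members over the all-gene median percentile.

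Among the called genes outside these lists, 3 with over 100 CPM are given as examples. S100a4, a calcium-binding protein, had 13.4%, 17.3% and 12.7% of 42602, 79195 and 49434 reads. Acod1, which makes itaconate in activated macrophages, had 9.22%, 11.3% and 11.2%. Pim1, a kinase made constitutively active by its structure and so set by its amount, had 944, 1596 and 1824 nascent reads of 3140, 3900 and 4312, a share of 30.1%, 40.9% and 42.3%. S100a4, Acod1 and Pim1 were chosen here after their values were seen.

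**Figure D4:**
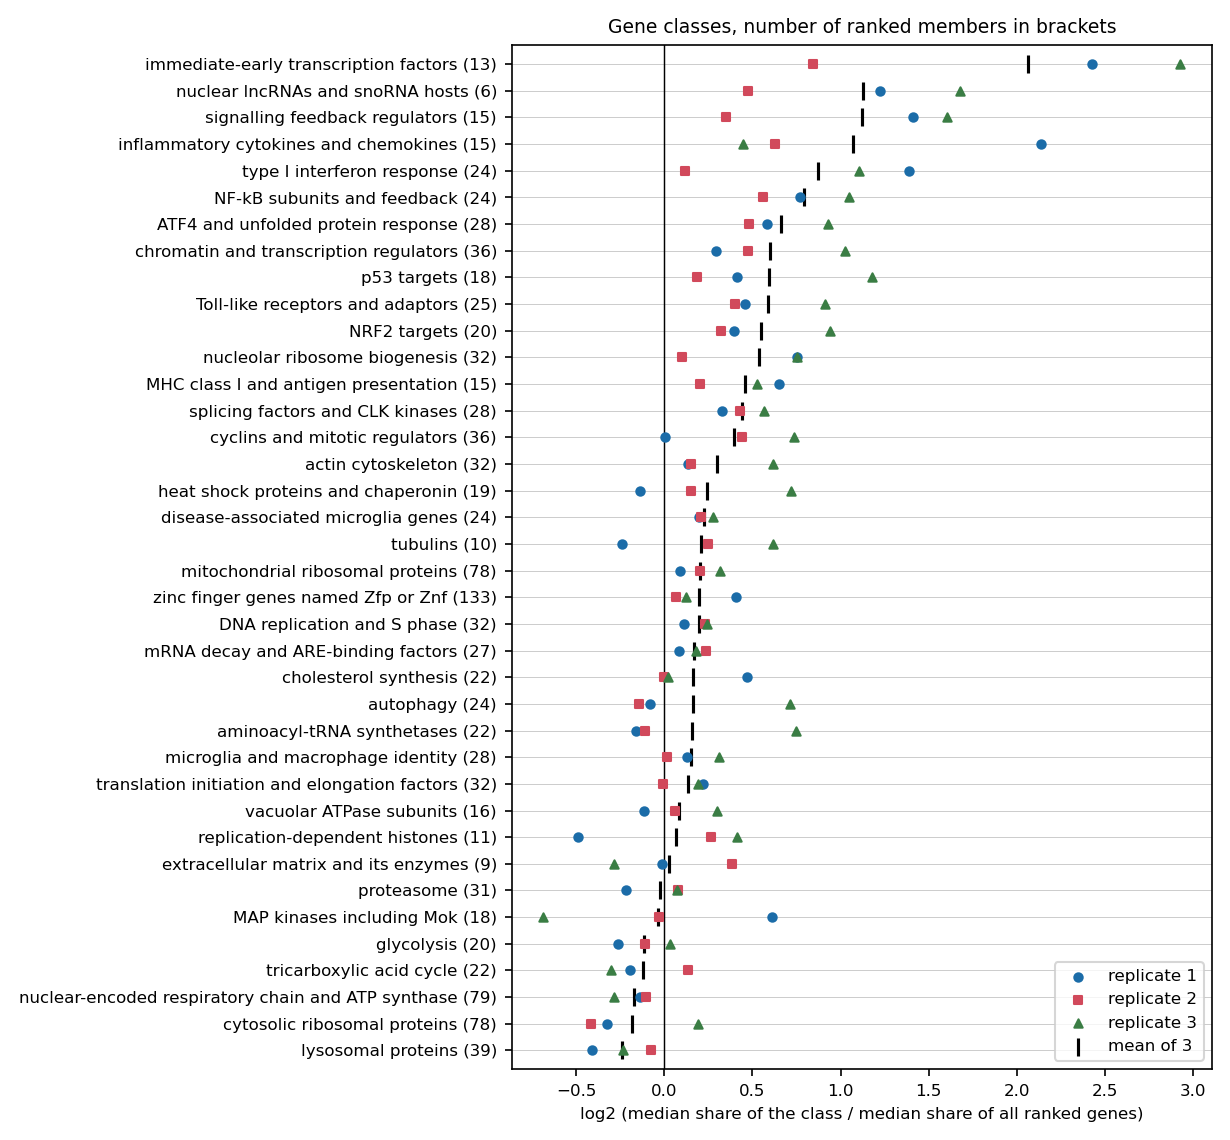
Log2 ratio of the median nascent share of a class to that of all ranked genes (horizontal axis) in each control library, with the mean as a bar, for 38 gene classes (number of ranked members in brackets). Immediate-early transcription factors lie at the top, with 0.84 to 2.93, and lysosomal proteins at the bottom, with -0.41 to -0.08.

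Of the 38 classes with 5 or more ranked members, 22 lay above the all-gene median in all 3 libraries, 2 lay below in all 3, and 14 did neither. In the other 9 libraries, 11 of the 22 were above in 9 of 9, among them cytokines, NF-κB, the ATF4 list, nucleolar and chromatin genes and splicing factors, and neither of the 2 was below in 9 of 9. Class medians carry the abundance of their members with them. Among the 2198 ranked genes with a mean of 3000 or more total counts, an alternative added after seeing the data, 30 classes kept 5 members. There NF-κB (0.82), chromatin regulators (0.56) and the ATF4 list (0.39) were above in all 3 libraries, as were 4 others by smaller amounts, and 6 classes lay below in all 3.

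These 6 classes were lysosomal proteins, the respiratory chain, cytosolic ribosomal proteins, glycolysis, the proteasome and the vacuolar ATPase. Cytosolic ribosomal proteins, the parts of the translating ribosome, had a median share of 2.21%, 4.74% and 1.87% over 78 members, with 53 of 78 below the all-gene median percentile. Their log2 values were -0.33, -0.42 and 0.19 in replicates 1, 2 and 3, a mean of -0.18 ± 0.33 (SD, n = 3), so that replicate 3 lay above the all-gene median. At 3000 or more counts, the alternative added after seeing the data, the log2 value was -0.43 ± 0.14 (SD, n = 3; 67 genes). Rps12 and Rpl27a were called lower. Rps12 had 148, 1169 and 120 nascent reads of 18984, 35879 and 16716, a share of 0.780%, 3.26% and 0.718%. Rpl27a had 1.26%, 3.90% and 0.794%. Both overlap 3 genes on the same strand. No gene of the list was called higher, and Rpl8 had 8.47%, 9.45% and 8.31% (adjusted p = 0.0683). Ribosomal protein genes have many processed pseudogenes with near-identical sequence, so that their counts are uncertain. The proteins of the mitochondrial ribosome were not low, with a log2 value of 0.20 ± 0.12 over 78 members.

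The nuclear-encoded respiratory chain and ATP synthase lay 0.17 ± 0.10 below the all-gene median on the log2 scale, a value of -0.17 (SD, n = 3; 79 members, 0 called). Cox4i1, a subunit of complex IV, had 0.470%, 4.27% and 0.587%, while Sdhb of complex II had 7.39%, 13.6% and 8.38%. Of the glycolytic enzymes, 14 of 20 were below the all-gene median percentile. Ldha, which makes lactate, had 1.76%, 4.86% and 1.24%, and Aldoa had 3.14%, 5.23% and 1.14%. The exceptions were Hk2, the inducible hexokinase, with 14.2%, 13.6% and 2.36%, and Slc16a3, the lactate exporter, with 8.16%, 8.61% and 4.95%. No glycolytic gene was called.

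Lysosomal proteins had the lowest mean log2 value, -0.24 ± 0.17 (SD, n = 3; 39 members), and 1 was called lower. Grn encodes progranulin, a lysosomal and secreted protein of microglia whose loss causes frontotemporal dementia with TDP-43 deposits. Of its 48008, 66924 and 50100 reads, 614, 2350 and 532 were nascent, a share of 1.28%, 3.51% and 1.06%, below the median gene of each library. Its log2 ratio was -1.21 ± 0.24 (SE; edgeR's quasi-likelihood test, adjusted p = 0.0398), with a common factor of 2. Ctsd, a lysosomal protease, had 2.43%, 4.58% and 1.13%. At the other end Cd68, a macrophage glycoprotein of the lysosome, had 5.06%, 8.81% and 3.92%.

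The remaining genes called lower were Anapc7 and Anapc5, subunits of the anaphase-promoting complex, Tcn2, a carrier of vitamin B12, Washc4, of the endosomal WASH complex, Dhx30, an RNA helicase, Slc2a9, a urate transporter, and Babam2, of a DNA repair complex. Washc4 stood out with 26037, 38165 and 108490 reads, of which only 6, 29 and 0 were nascent. Anapc7 had 0, 4 and 0 nascent reads of 2785, 1459 and 2205, and Tcn2 had 0, 14 and 0 of 4704, 4186 and 4487, with a common factor of 7. Dhx30 had a common factor of 8. In all 10 lower genes the share of replicate 2 was the highest of the 3, as it was for 6396 members, and it was so for 39 of the 72 higher genes. With counts divided by the common factor or with one library left out, 3 to 8 of these 10 were still called.

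Genes that mark microglia were divided. The identity list lay 0.15 ± 0.15 above the all-gene median (SD, n = 3; 28 members, 0 called), and its sign turned under 3 of the alternatives. Transcription factors stood at its upper end: Cebpa had 15.3%, 14.4% and 8.00%, and Spi1, which encodes PU.1, had 7.23%, 12.4% and 7.69%. Surface receptors and effectors stood at the typical gene, as with Csf1r, the receptor for Csf1, at 3.31%, 8.29% and 2.32%, and Tyrobp, a signalling adaptor, at 2.85%, 8.31% and 2.04%. Itgam, the CD11b integrin, had 1.51%, 0% and 0.0903%. Genes known from disease-associated microglia lay 0.23 ± 0.04 above (24 members) with Csf1 called. Their value was 0.07 at a minimum of 500 counts, 0.009 at 3000 and -0.0788 with 20 or more nascent counts. Apoe had 3.39%, 6.47% and 1.38%, Spp1 had 4.56%, 8.52% and 2.44%, and Gpnmb, the eighth most abundant gene, had 1.59%, 4.56% and 1.04% (adjusted p = 0.063). Toll-like receptors and their adaptors lay 0.59 ± 0.28 above, with Tlr2 at 6.99%, 9.56% and 6.84%, and 0 of 25 members called. In the other 9 libraries this list was above the all-gene median in 5, with a median log2 value of 0.07 and a lowest of -1.31.

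Sequence features were compared next. The motif TATTTAT was in the 3′ UTR of 29 of the 59 protein-coding genes called higher (49.2%), beside 2600 of 9090 protein-coding members with a UTR (28.6%). Longer UTRs hold the motif more often. Among UTRs of 501 to 1000 bases the motif was in 7 of 11 called genes (63.6%) and 19.6% of members, and among UTRs over 2000 bases in 12 of 21 (57.1%) and 54.1%. The excess did not extend to the ranking as a whole. In the top 10% of percentiles 30.8% of genes held the motif, in the bottom 10% 27.8%, and Spearman's rho between copies of ATTTA and percentile was 0.0188 over 9069 genes. In the cytosolic ribosomal protein list, whose UTRs had a median of 78 bases, the motif was in 2 of 78 genes. In the NF-κB list it was in 7 of 24 (29.2%), near the value of all members. It was in 8 of 13 immediate-early genes and 8 of 14 cytokines, but also in 17 of 27 decay factors and 9 of 16 vacuolar ATPase genes. The log2 values of the decay factors and the vacuolar ATPase were 0.17 and 0.08.

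**Figure D5:**
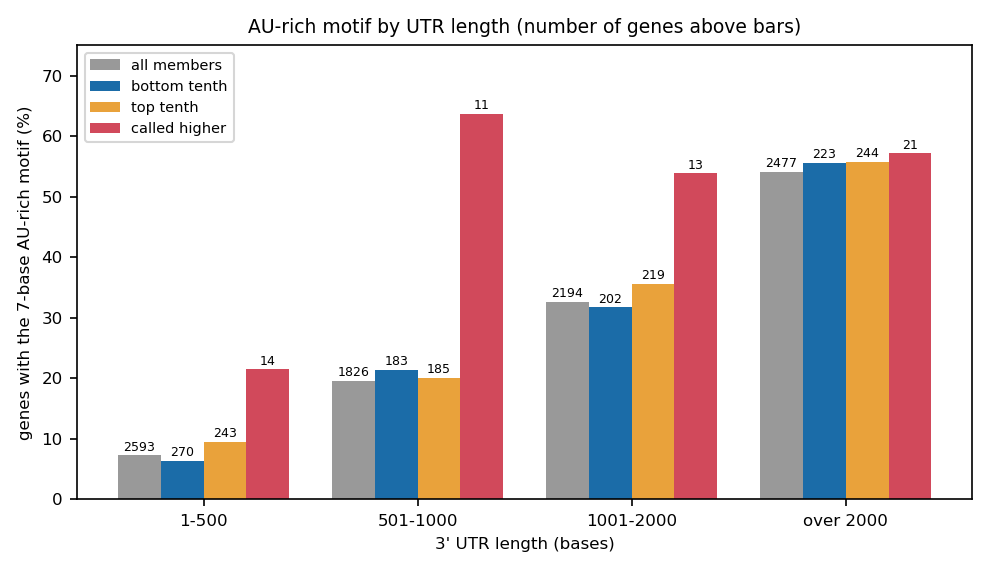
Percent of protein-coding genes whose 3′ UTR holds TATTTAT (vertical axis), by UTR length (horizontal axis), for all members, the bottom and top 10% of mean percentile and the genes called higher, with the number of genes above each bar. The bars of the called genes exceed those of all members most at 501 to 1000 bases, 63.6% against 19.6%, and least over 2000 bases, 57.1% against 54.1%.

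The label enters at uridines, written T in the sequence, and rho between the share of T in the last 300 bases of the transcript and percentile was 0.0131 over 9107 genes. Genes called higher were more compact, with a median of 6 exons and a span of 13707 bases, beside 9 exons and 24642 bases. Across all ranked protein-coding genes, rho was -0.0952 for exon number and -0.108 for span. The called genes were also more abundant, at a median of 94.1 CPM beside 29.3. Features of called genes therefore carry abundance with them, and the part of abundance in them was not tested.

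The contrast was repeated in the 9 libraries with TDP-43 aggregates, C13 or both, none of which is a control. There edgeR called 593 members higher, 6.35% of those tested, and 2013 lower, 21.6%. Of the 72 control calls 71 were among the 593, which is 98.6% of the first list and 11.97% of the second, and the exception was Midn, a nuclear protein of proteasomal degradation. Of the 10 lower calls 9 were among the 2013, which is 90% and 0.447%, with Anapc7 as the exception. All 72 and all 10 had the same sign in both. Tnf was between percentiles 99.9 and 100 in each of the 9 libraries, and its share there was 47.0% to 76.5%. Nfkbia had 45.3% to 67.6%. Grn had 0.848% to 1.32%, at percentiles of 26.1 to 68.2, so that it was not low in the ranking of every library. Some called genes ranged widely there, as with Trex1 at 0% to 76.6%, Nop56 at 0% to 37.7% and Anapc7 at 0.118% to 10.2%. Washc4 stayed between 0% and 0.0752%. Highest percentiles there were 88.3 for Tcn2, 87.9 for Dhx30 and 85.7 for Slc2a9, beside 24.5 for Washc4 and 37.5 for Babam2.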

How the data were processed

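SLAM-seq libraries of mRNA 3′ ends (QuantSeq, per the labels' protocols) were analysed from 2 tables of raw counts that the authors deposited, nascent and total reads per Ensembl gene. GRCm38 is the build named in the submitters' processing notes. Sources used here do not give the aligner or how nascent reads were defined. Genes were annotated with GENCODE release M21 (30940 identifiers matched). Nascent counts never exceeded total counts.

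Nascent and remaining reads (total minus nascent) were compared with edgeR 4.0.16 (R 4.3.3, TMM scaling, quasi-likelihood test, library as a block). DESeq2 1.42.0 was an alternative. The edgeR test was also run on counts simulated from its own fit. Those counts had no common factors, so they cannot show how the test behaves on the deposited counts. The library block pairs the 2 counts of 1 sample. Members had a mean of 100 or more total counts. Class values are medians of shares per library. Named genes were the 15 highest called genes with a mean of 20 or more nascent counts, the lowest called genes with 1000 or more total counts (up to 15), the 20 most abundant, the 3 most abundant and the extremes of each class, and a list of interest. Other members of the classes were named for their role, after their values were seen. Members, lists and tests were chosen with earlier results of these data known. Depth was 32105684 to 38318656 counts per sample.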

Additional observations from a re-analysis of the deposited data

How the results depend on the processing

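Nascent counts of single genes were low, with a median of 45.3 as a mean over 3 libraries. Of the calls, 72 higher and 10 lower, RLE scaling gave 76 and 10. DESeq2 gave 258 and 288; a minimum of 500 total counts gave 39 and 1, with 6519 genes tested, and a minimum of 10 or no minimum gave 25 and 39 lower calls. Without the replicate block, which here pairs the nascent and remaining reads of a library, 63 were higher and 4 lower. Dividing counts by their common factor gave 19 lower. Leaving out 1 library gave 28 to 87 higher and 5 to 24 lower calls, and 22 to 27 classes above and 3 to 6 below the all-gene median in every library kept. Classes below numbered 5 at a minimum of 500 counts and 9 with 20 or more nascent counts. At a minimum of 3000 counts, added after seeing the data, 7 classes were above and 6 below.

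Signs turned in 7 of 370 class values. The microglial identity list was at -0.15 with pooled shares, -0.0107 at a minimum of 500 counts and -0.0868 with 20 or more nascent counts. With 20 or more nascent counts the actin list was at -0.0107 and the disease-associated list at -0.0788. At a minimum of 3000 the decay factors were at -0.47 and MHC class I at -0.0917. The causes were not tested. Of the calls, 71 and 9 were shared with the other 9 libraries under TMM and RLE scaling, and the 20 most abundant genes held 14.9% to 17.2% of reads with 1 library left out.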
